A study of Mus musculus with 6 samples.

Results

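The 2 mitochondrial tRNAs that border the ribosomal RNA genes were examined at single-base resolution: mt-Tf, the tRNA for phenylalanine, and mt-Tv, the tRNA for valine. They were chosen by gene and position, not by a measured value, but with earlier results of these data known. They are 2 of the 37 genes and 2 of the 22 tRNA genes of the mouse mitochondrial chromosome (chrM, GRCm38). mt-Tf (ENSMUSG00000064336.1) spans chrM 1 to 68 and mt-Tv (ENSMUSG00000064338.1) spans 1025 to 1093, both on the forward strand and both annotated as mitochondrial tRNA with no intron or UTR. The small RNA libraries were made from islets of Langerhans, the endocrine tissue of the pancreas. Of the libraries, 3 came from the genotype Mrpp3WT (wild type) and 3 from Mrpp3N434S (mutant), all after a high-fat diet for 14 weeks. The sample titles number them as replicates without saying whether each is a single mouse. Each library is called a mouse here. The sources used here do not give strain, age, sex or zygosity, and no group on another diet was analysed here. All values are counts of bases read on the mitochondrial chromosome, so neither the Mrpp3 genotype nor any islet marker, all nuclear, could be checked.

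The mitochondrial heavy-strand transcript is read as one long RNA that begins close to mt-Tf, and tRNAs punctuate it. RNase P, whose nuclease subunit is MRPP3, cuts at the 5′ end of each tRNA, and the nuclease ELAC2 cuts at the 3′ end. Release of mt-Tf and mt-Tv therefore also forms both ends of the small ribosomal RNA mt-Rnr1 and the 5′ end of the large ribosomal RNA mt-Rnr2. MRPP1, another subunit, adds a methyl group to the purine at tRNA position 9, and a methylated adenosine can be misread during reverse transcription. In mammalian mitochondrial ribosomes, the valine or the phenylalanine tRNA, depending on the species, also serves as a structural RNA of the large subunit.

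The genes of both tRNAs are shown 5′ to 3′ because base 9 and the tRNA ends carry the results. Capitals mark base 9, an adenosine in each, and the anticodon at bases 33 to 35.
mt-Tf, chrM:1-68, forward strand: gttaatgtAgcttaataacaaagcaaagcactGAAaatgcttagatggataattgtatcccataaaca
mt-Tv, chrM:1025-1093, forward strand: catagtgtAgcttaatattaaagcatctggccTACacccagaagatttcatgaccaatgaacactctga
Both share the stretch tgtAgcttaata at bases 6 to 17, with base 9 in capitals, and no other mitochondrial tRNA gene holds it. Without gaps, 20 of the first 30 bases are identical, but 9 of bases 31 to 68.

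The junctions with the rRNA genes are shown next, with the tRNA bases in capitals, because the steps in depth fall there. At both ends of mt-Tv the step is at the change of case. After mt-Tf the main step falls between bases 69 and 70, not at the change of case.
mt-Tf to mt-Rnr1, chrM:54-83: TGTATCCCATAAACAcaaaggtttggtcct
mt-Rnr1 to mt-Tv, chrM:1010-1039: tgtgcttggaataatCATAGTGTAGCTTAA
mt-Tv to mt-Rnr2, chrM:1079-1108: CAATGAACACTCTGAactaatcctagccct
mt-Tv adjoins both rRNA genes directly. A single base, 69, lies between mt-Tf and mt-Rnr1 (chrM 70 to 1024).

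Summed over chrM, 3156761 to 4337052 bases were read per wild-type library and 5461367 to 10923311 per mutant library, so that the genotypes did not overlap. The deepest position of any library had a depth of 8000, both strands together, and a depth limit there is inferred. It would touch positions of mt-Rnr2, its first bases among them, but neither tRNA. Depth lay above 6000 at 90 to 98 positions in wild-type mice. In mutant replicates 1, 2 and 3 it did so at 408, 98 and 98 positions. Since these are small RNA libraries, depth on the rRNA genes counts short RNA and is not a measure of whole rRNA. This holds for every rRNA level, ratio, scaling and boundary below. P-values measure the spread between 3 libraries per genotype.

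Both tRNAs stood at opposite ends of the range of tRNA levels. The mean depth of mt-Tv (reads per base) was 1535, 822 and 734 in wild-type mice 1, 2 and 3, and 933, 935 and 803 in mutant mice 1, 2 and 3. Wild-type replicate 1 was the highest, and the genotypes overlapped in these unscaled values. The mean depth of mt-Tf was 4.31, 3.47 and 2.49 in wild-type mice and 4.65, 6.13 and 8.18 in mutant mice. Every mutant library lay above every wild-type library, as did the total depths, and no base of mt-Tf was read more than 20 times. Within a library mt-Tv had 98.3 to 356 times the mean depth of mt-Tf. No read fell on the reverse strand of mt-Tv, and on that of mt-Tf the highest depth was 1, in mutant replicate 1.

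Scaled by TMM over the mitochondrial genes, mt-Tv ranked 3 of 22 tRNAs in wild-type mice, at a depth of 1257 ± 208 (SD, n = 3). It stood there between mt-Tm (methionine, 1521 ± 335) and mt-Tq (glutamine, 1197 ± 195). mt-Tv lay within the SD of both, whereas mt-Tq but not mt-Tm lay within the SD of mt-Tv. In the mutant mt-Tv ranked 4, at 788 ± 256, between mt-Tm (814 ± 110) and mt-Th (histidine, 730 ± 119). There mt-Tv and both neighbours lay within each other's SD. These are ranks of group means. Within single libraries mt-Tv ranked 3, 2 and 4 in wild-type mice and 5, 2 and 3 in mutant mice. By group mean mt-Tf ranked last in both genotypes, at 4.29 ± 0.559 and 5.72 ± 2.44 (SD, n = 3). Within single libraries it ranked 22, 22 and 21 in wild-type mice and 22, 21 and 21 in mutant mice. The next lowest were mt-Tk (lysine) in wild-type mice, at 7.53 ± 2.34, and mt-Td (aspartate) in mutant mice, at 7.80 ± 3.68, so that mt-Tf and its neighbour lay within each other's SD in mutant but not in wild-type mice.

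**Figure D1:**
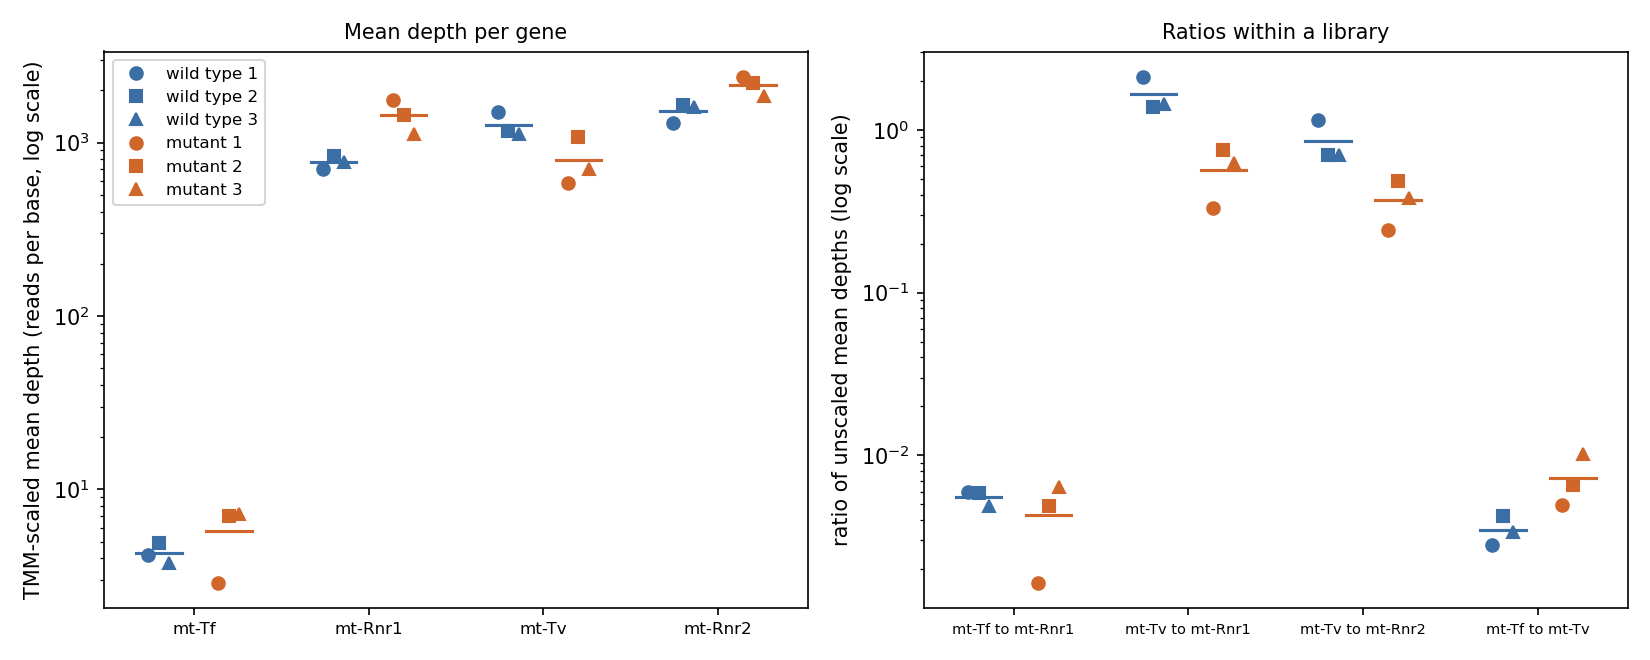
Left, TMM-scaled mean depth (log axis) of mt-Tf, mt-Tv and the rRNA genes beside them; right, ratios of unscaled mean depths within each library (log axis). Points are libraries and bars are means of 3; mt-Tv lies at 1118 to 1496 in wild-type mice and 582 to 1074 in mutant mice, while by this scaling both rRNA genes lie higher in every mutant library.

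Scaled by TMM, mt-Tv was lower in every mutant library than in any wild-type one, but the difference did not pass the test over all genes. The scaled depth was 1496, 1158 and 1118 in wild-type mice and 582, 1074 and 708 in mutant mice, with mutant replicate 2 just below the lowest wild-type library. The log2 difference was -0.68 (SE 0.25, 95% interval -1.19 to -0.16, edgeR adjusted p = 0.0735, unadjusted p = 0.0110), a 1.60-fold lower level. Of the 34 genes deep enough to test (mean depth of 10 or more), 2 passed (5.88%, with 12 or 35.3% at an unadjusted p under 0.05), 7 (20.6%) were lower in mutant mice without overlap between the genotypes, and 15 (44.1%) did not overlap in either direction. mt-Tv passed without wild-type replicate 2 (log2 -0.79, edgeR adjusted p = 0.0407), without mutant replicate 2 (log2 -1.01, 0.0114) and without mutant replicate 3 (log2 -0.61, 0.0294). It did not pass without wild-type replicate 1, the highest library (log2 -0.53, edgeR adjusted p = 0.362). Nor did it without wild-type replicate 3 (log2 -0.78, 0.107) or without mutant replicate 1 (log2 -0.53, 0.119). The scaling also decided the call. Scaled to library totals mt-Tv differed by -1.15 (edgeR adjusted p = 0.0332) and scaled to the rRNA genes by -1.33 (0.0186), where 12 of 34 (35.3%) and 16 of 34 (47.1%) genes were called lower. Scaled to the tRNA genes, which include mt-Tv, it differed by -0.28 (edgeR adjusted p = 0.373), and 0 of 34 genes were called lower. As a share of the summed tRNA depth mt-Tv made up 14.4%, 13.3% and 12.0% in wild-type mice and 8.33%, 14.1% and 10.2% in mutant mice, so that the genotypes overlapped. The median of all genes moved with the scaling, from -0.03 by TMM to -0.51, -0.69 and 0.37. Relative to that median mt-Tv stood at -0.64, -0.64, -0.64 and -0.65 by TMM, totals, rRNA and tRNA scaling. A change of scale shifts all genes nearly alike, so these values are near equal by construction and are not separate support. In bulk RNA, fewer cells of a type and less RNA per cell cannot be told apart.

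mt-Tf was too shallow for that test. Fitted with no filter on depth, its log2 difference was 0.60 (SE 0.56, 95% interval -0.58 to 1.79, edgeR adjusted p = 0.476). The interval reaches from a decrease to an increase of more than 2-fold, so the direction was not detectable at this depth.

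Of the other 20 mitochondrial tRNAs, 18 had a mean depth of at least 10. Of these, 15 had a log2 difference below 0 and 3 above it, with a median of -0.26, and 1, mt-Tm, passed as lower by edgeR. Over all 34 genes 18 were below 0 and 16 above, with a median of -0.03. By library totals 10 of the 18 passed as lower and scaled to rRNA 13, whereas scaled to the tRNA genes 5 were below 0, 13 were above and 1, the proline tRNA mt-Tp, passed as higher. Of the 14 tRNAs with adenosine at position 9, mt-Tf and mt-Tv among them, 11 were testable, 9 were below 0 and 2 above, none passed by TMM, and the median was -0.32. By library totals 6 of these passed as lower and scaled to rRNA 8, mt-Tv among them in both, whereas scaled to the tRNA genes 4 were below 0, 7 were above and mt-Tp passed as higher. In the run of 5 genes from mt-Tf to mt-Tl1, which follow one another on the heavy-strand transcript, mt-Rnr1 passed as higher (log2 0.90, edgeR adjusted p = 0.0124) and mt-Tv had the only value below 0 among the 4 tested by TMM, whereas 2 were below 0 by library totals and 3 scaled to rRNA. The call of mt-Rnr1 was lost without wild-type replicate 1 or 3 (log2 0.84 and 0.82) and with the replicate block (0.88). It was also lost scaled to the rRNA genes (0.24), which include mt-Rnr1 itself.

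By the root mean square difference of scaled log2 depth over the 6 libraries, the genes with the pattern most like mt-Tv were mt-Tm (0.270), the asparagine tRNA mt-Tn (0.318) and the glutamate tRNA mt-Te (0.341). For mt-Tf they were the mRNAs mt-Atp8 (0.305) and mt-Nd2 (0.343) and the serine tRNA mt-Ts2 (0.360). All of these share libraries and scaling.

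Ratios within a library do not depend on scaling. mt-Tv had 2.12, 1.39 and 1.45 times the mean depth of mt-Rnr1 in wild-type mice, and 0.332, 0.748 and 0.628 times in mutant mice. The wild-type values all lay above 1 and the mutant values all below it. The mutant ratio was 3.01-fold lower (log2 -1.59), with the smallest p that 3 against 3 libraries allow (exact two-sided permutation p = 0.1, adjusted over 4 ratios 0.133). Of the 33 genes that could be set against mt-Rnr1, mt-Tv included, 28 (84.8%) were lower without overlap, so this order of the libraries is near the background. Relative to mt-Rnr2 the ratio was 1.15, 0.700 and 0.700 in wild-type mice and 0.243, 0.485 and 0.381 in mutant mice, 2.32-fold lower (log2 -1.22, exact permutation p = 0.1, adjusted 0.133). Here 20 of 33 genes (60.6%) were lower without overlap. Taken from maximum in place of mean depths, which for mt-Rnr2 lie near the inferred depth limit, this log2 difference was -0.17 (exact permutation p = 0.9). The mean depth of mt-Rnr2 also includes positions near that limit.

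mt-Tf did not separate from mt-Rnr1, the rRNA after it. Its mean depth was 0.00595, 0.00586 and 0.00492 of that of mt-Rnr1 in wild-type mice and 0.00165, 0.00491 and 0.00639 in mutant mice, so that the genotypes overlapped (log2 -0.57, exact permutation p = 0.6, adjusted 0.6). Mutant replicate 1 alone was low, and without it the log2 difference was 0.01. Between the members, the ratio of mt-Tf to mt-Tv was 0.00281, 0.00422 and 0.00339 in wild-type mice and 0.00498, 0.00656 and 0.0102 in mutant mice, 2.02-fold higher (log2 1.02, exact permutation p = 0.1, adjusted 0.133). Of the 33 other genes with a mean depth of at least 10, which leaves out mt-Tf, 15 (45.5%) were higher relative to mt-Tv without overlap.

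**Figure D2:**
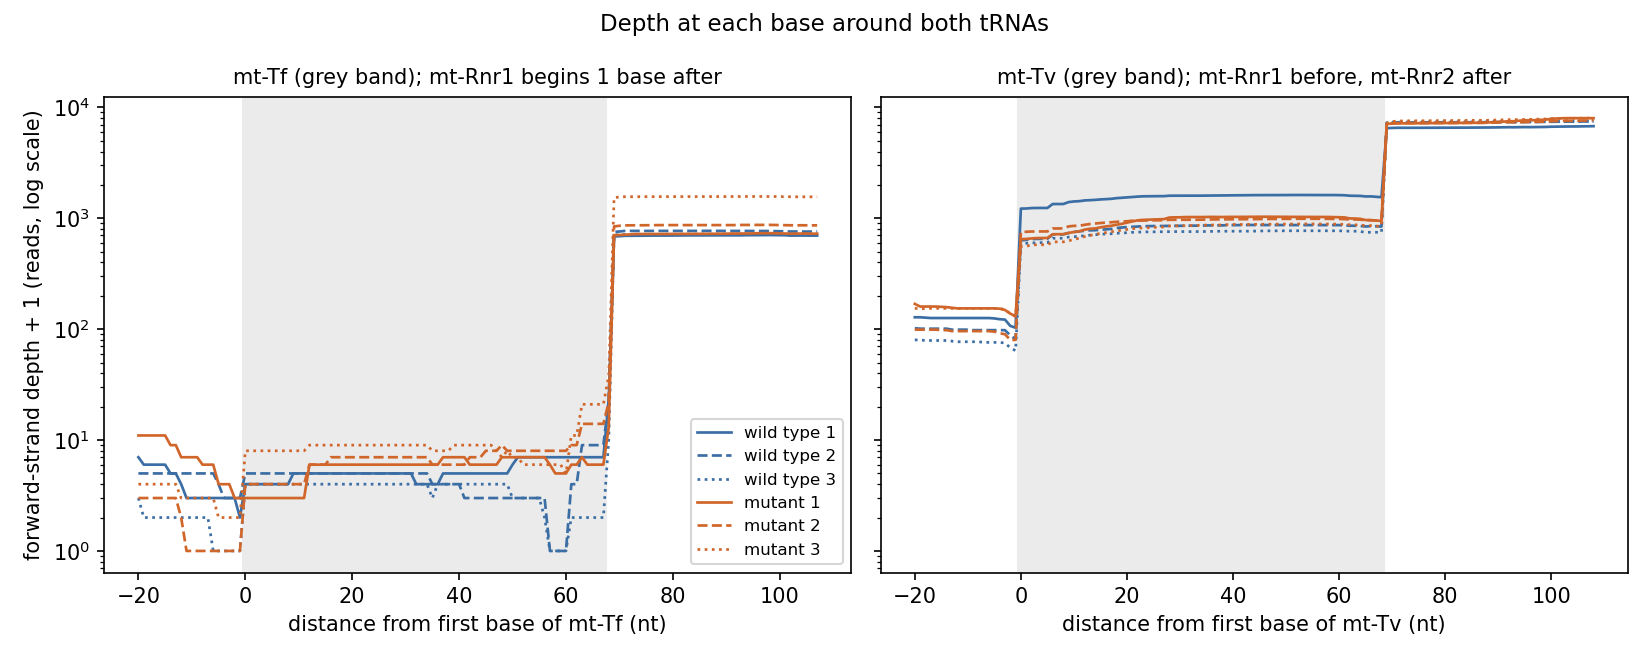
Forward-strand depth plus 1 (log axis) against distance from the first base of mt-Tf (left) and mt-Tv (right), one line per library, with the tRNA as a grey band. Depth stays at 20 or below across mt-Tf and steps up to 686 to 1532 at the first base of mt-Rnr1; mt-Tv begins and ends with a step in all 6 libraries.

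At the 3′ end of mt-Tf the depth rose steeply within 2 bases, by a factor of 64.8 to 140 in the 5 libraries with more than 3 reads at its last base. The last base, 68, was read 6, 8 and 1 times in wild-type mice and 5, 13 and 20 times in mutant mice. Base 69 was read 22, 22 and 9 times and 12, 21 and 37 times. The first base of mt-Rnr1 was read 686, 752 and 704 times in wild-type mice and 702, 843 and 1532 times in mutant mice. Since a read that crosses the junction covers both sides, the depth at base 68 bounds such reads from above. That bound was 0.875%, 1.06% and 0.142% of the depth at the first base of mt-Rnr1 in wild-type mice and 0.712%, 1.54% and 1.31% in mutant mice, with overlap (exact permutation p = 0.3). The lowest of these rests on a single read, with an exact (Clopper-Pearson) 95% interval of 0.0036% to 0.789%, and the highest has one of 0.824% to 2.62%.

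The 5′ end of mt-Tf is the start of the numbering of a circular chromosome. The 10 bases before it, the last of the numbering, had a mean depth of 1.9, 3.1 and 0.4 in wild-type mice and 4.0, 0 and 1.5 in mutant mice. Its own first 10 bases had 3.1, 4.0 and 3.0, and 2.0, 3.0 and 7.0. Both sides were at or near the limit of 3 counts, and the sources used here do not say whether reads could be aligned across the origin. In wild-type replicates 2 and 3 the depth fell to 0 within mt-Tf, at bases 58 to 61, so that no read covered the whole tRNA in these libraries. Depth changed at base 64 in several libraries, from 3 to 8 in wild-type replicate 2, from 8 to 13 in mutant replicate 2 and from 10 to 20 in mutant replicate 3, and in these it then held to base 68.

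The 5′ end of mt-Tv showed a sharp step out of mt-Rnr1. The last 10 bases of mt-Rnr1 had a mean depth of 120, 94.4 and 73.2 in wild-type mice and 149, 90.7 and 149 in mutant mice. The first 10 bases of mt-Tv had 1282, 675 and 624, and 683, 781 and 588. The ratio of outside to inside was 0.0936, 0.140 and 0.117 in wild-type mice and 0.217, 0.116 and 0.253 in mutant mice. Mutant replicates 1 and 3 were the highest, and mutant replicate 2 lay within the wild-type range. The log2 difference was 0.71 (SE 0.31, 95% interval -0.02 to 1.44, edgeR adjusted p = 0.468), and 0 of 25 tRNA boundaries passed (0%), with 2 (8%) at an unadjusted p under 0.05. limma gave 0 of 25 and DESeq2 2, neither of them at mt-Tv. Without mutant replicate 2 the boundary of mt-Tv passed (log2 1.03, edgeR adjusted p = 0.0267). Read as a bound, the depth at the last base of mt-Rnr1 allows at most 8.35%, 12.7% and 10.7% of the depth at mt-Tv base 1 to reach across the junction in wild-type mice, and 20.1%, 10.5% and 23.2% in mutant mice (exact permutation p = 0.3). The scaled depth of mt-Rnr1 also differed, at 706, 835 and 770 and at 1753, 1437 and 1127, and its part in the ratio was not tested.

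Among the 10 tRNA 5′ ends with enough depth on both sides, mt-Tv had the third lowest ratio of outside to inside in wild-type mice, at 0.117 ± 0.0231 (SD, n = 3). The lower ones were mt-Tm, at 0.0664 ± 0.0154, and mt-Th, at 0.0996 ± 0.00310. The highest was the leucine tRNA mt-Tl2 (9.46 ± 0.422), which follows mt-Ts2 directly.

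At the 3′ end of mt-Tv the depth rose again, into mt-Rnr2. The last base of mt-Tv was read 1548, 841 and 742 times in wild-type mice and 945, 949 and 849 times in mutant mice. The next base, the first of mt-Rnr2, was read 6490, 7212 and 7292 times, and 7080, 7083 and 7214 times. These values were nearly alike in libraries whose totals differed, and they lie near the inferred limit of 8000, so the true step may be larger. The ratio of the 10 bases outside to the 10 inside was 4.12, 8.57 and 9.75 in wild-type mice and 7.27, 7.43 and 8.66 in mutant mice (log2 0.15, SE 0.38, 95% interval -0.74 to 1.03, edgeR adjusted p = 0.995). Wild-type replicate 1 alone was low, and without it the log2 difference was -0.24. If the inferred limit holds, the outside depth is capped, so this ratio cannot show whether the boundary differed between genotypes.

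**Figure D3:**
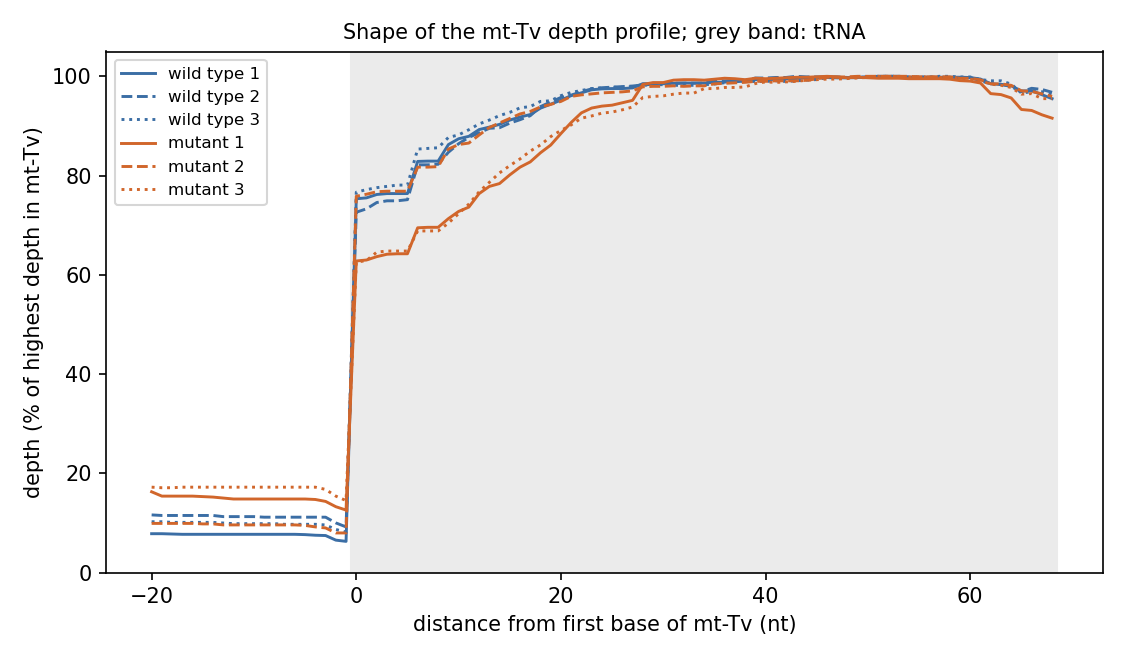
Depth along mt-Tv as a percentage of its highest depth in the same library, against distance from its first base (grey band, the tRNA). At base 1 the wild-type libraries and mutant replicate 2 stand at 72.6% to 76.7%, and mutant replicates 1 and 3 at 62.8% and 62.5%; all lines meet near 100% from the middle of the tRNA on.

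Along mt-Tv, depth built up from the 5′ end and stayed level from the anticodon on. Base 1 held 75.3%, 72.6% and 76.7% of the highest depth in wild-type mice and 62.8%, 75.8% and 62.5% in mutant mice. At the last base 95.5% to 96.8% and 91.6% to 96.0% of the highest depth was left. Between bases 11 and 30 depth rose by a further 12.3%, 13.7% and 10.6% of its highest value in wild-type mice, and by 27.4%, 12.6% and 25.5% in mutant mice. Mutant replicates 1 and 3 rose most there, and mutant replicate 2 lay within the wild-type range (exact permutation p = 0.2).

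The first 10 bases had 0.813, 0.797 and 0.830 times the depth of the rest of mt-Tv in wild-type mice and 0.700, 0.813 and 0.700 times in mutant mice (log2 -0.14, SE 0.06, 95% interval -0.29 to 0.01, edgeR adjusted p = 0.603). No segment of any tRNA passed by edgeR (0 of 124, 0%, with 11 or 8.87% at an unadjusted p under 0.05), nor by limma, and 1 did by DESeq2. Bases 11 to 20 differed by -0.09 and the other 5 segments of mt-Tv by 0.0039 to 0.05 on the log2 scale. Without mutant replicate 2 the first segment passed (log2 -0.22, edgeR adjusted p = 0.0287).

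Base 9 was read in 82.9%, 82.3% and 85.6% of the highest depth in wild-type mice and in 69.6%, 81.8% and 68.8% in mutant mice. Each mutant library was below each wild-type one (exact permutation p = 0.1), mutant replicate 2 by a narrow margin, and 5 of 14 tRNAs (35.7%) did not overlap in this measure. A smaller rise fell at base 7, by 6.48%, 7.02% and 7.26% of its highest value in wild-type mice and by 5.23%, 4.85% and 4.05% in mutant mice (exact permutation p = 0.1). This base was chosen after its values were seen, and 10 of the 69 bases of mt-Tv (14.5%) did not overlap in their net change. Directly 3′ of base 9, at base 10, the rise was 3.33%, 2.42% and 2.08% against 1.74%, 3.54% and 1.57%, with overlap.

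Mismatch in mt-Tv was confined to base 9 at any level above 1.22%. At base 9 (chrM 1033) 37.9%, 37.1% and 39.4% of the bases read differed from adenosine in wild-type mice, at depths of 1344, 715 and 660. In the mutant 38.3%, 35.1% and 30.9% did, at depths of 718, 809 and 612. Mutant replicate 1 lay among the wild-type libraries, and mutant replicate 3 was the lowest. Its exact (Clopper-Pearson) 95% interval, 27.2% to 34.7%, overlaps that of wild-type replicate 2 (33.5% to 40.7%) but not those of wild-type replicates 1 and 3 (35.3% to 40.5% and 35.6% to 43.2%). Such intervals cover counting error only. The genotypes overlapped, with a difference in log2 odds of -0.21 (SE 0.30, 95% interval -0.82 to 0.40, edgeR adjusted p = 0.702). Of 10 tRNAs tested at position 9, 0 passed (0%) by edgeR, limma or DESeq2, with 2 (20%), 1 and 0 at an unadjusted p under 0.05. mt-Tv had the third highest position 9 mismatch of these 10 in wild-type mice, and was in the middle of the 5 with adenosine there. The means of these 5 were 74.5% (mt-Tn), 47.6% (mt-Th), 38.1% (mt-Tv), 19.9% (the alanine tRNA mt-Ta) and 12.0% (mt-Te). Without adenosine at position 9 they ran from 0.103% to 1.62%.

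**Figure D4:**
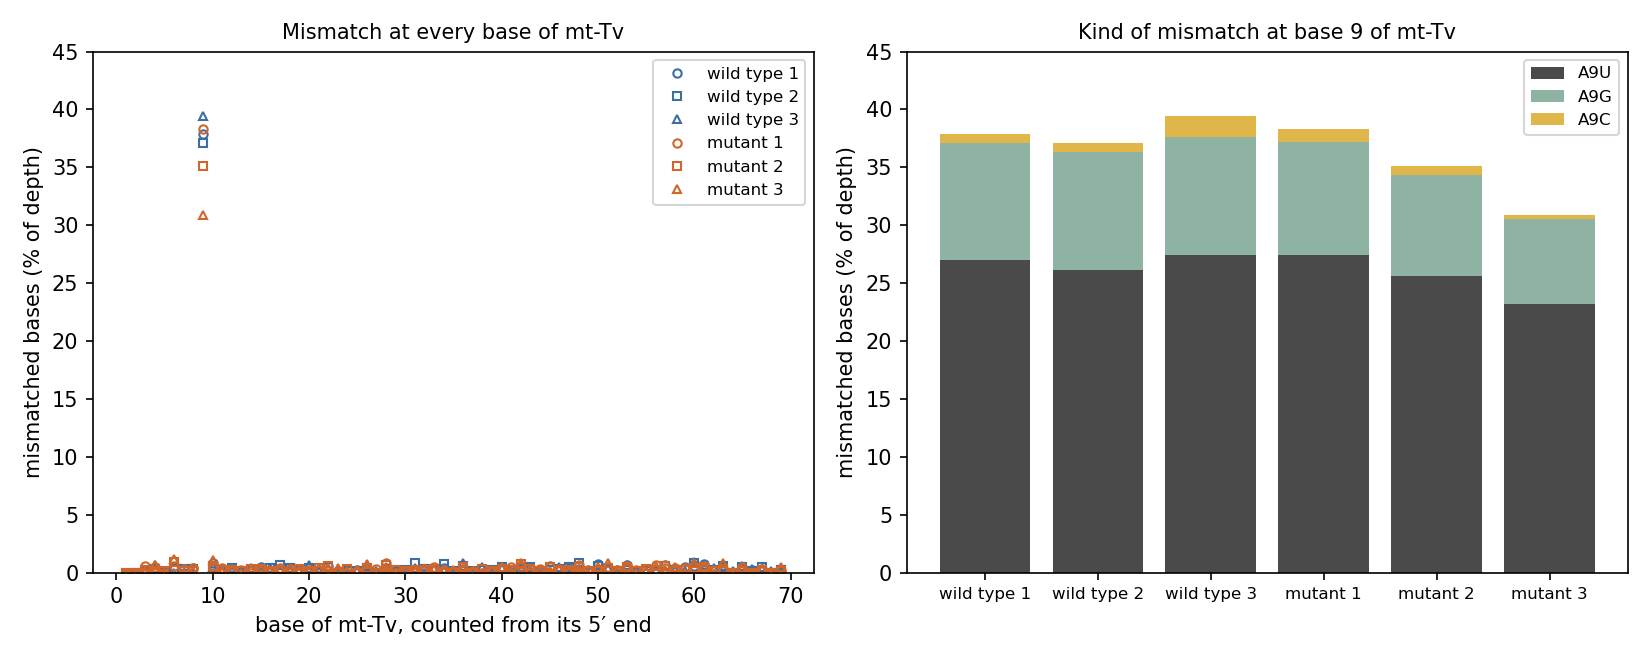
Left, mismatched bases as a percentage of depth at each of the 69 bases of mt-Tv, one point per library; right, the percentage at base 9 split by the base read. Base 9 stands at 30.9% to 39.4% and every other base at 1.22% or below; A9U is the largest part in each library.

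Base positions count from 1, the 5′ base of the gene. A9U, read as T, made up 71.3%, 70.6% and 69.6% of the mismatched bases at base 9 in wild-type mice and 71.6%, 72.9% and 75.1% in mutant mice. A9G made up 26.7%, 27.5% and 25.8% against 25.5%, 25.0% and 23.8%, and A9C 1.06% to 4.62% over all libraries. The A9U share was higher in each mutant library than in each wild-type one (70.5% ± 0.852 and 73.2% ± 1.77, SD, n = 3, exact permutation p = 0.1). Of the 5 A9 tRNAs tested at position 9, 1 (20%), mt-Tv itself, did not overlap in this share. As a percentage of depth A9G was 10.1%, 10.2% and 10.2% in wild-type mice and 9.75%, 8.78% and 7.35% in mutant mice, again without overlap (exact permutation p = 0.1) and again as 1 of 5 A9 tRNAs (20%), whereas A9U overlapped, at 27.0%, 26.2% and 27.4% against 27.4%, 25.6% and 23.2%.

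At the other 68 bases of mt-Tv the mismatch was 0.260%, 0.280% and 0.256% in wild-type mice and 0.25%, 0.234% and 0.288% in mutant mice, over 49970 to 104577 bases read in each library. No base other than 9 had a mean of 1%, the minimum for the test over all tRNA and rRNA positions. In that test base 9 gave an edgeR adjusted p of 0.729, and 0 of 42 positions passed (0%, with 2 or 4.76% at an unadjusted p under 0.05), nor by limma or DESeq2; wild-type replicate 1 left out, 1 passed. The highest single value was 1.22%, at base 6 in mutant replicate 3. Base 6 had 4 mismatches in a depth of 1238, 2 in 653 and 0 in 602 in wild-type mice, and 4 in 663, 7 in 760 and 7 in 576 in mutant mice. It was chosen after its values were seen. It was 1 of 4 of the 68 bases (5.88%) with every mutant library above every wild-type one, and 3 (4.41%) showed the reverse order.

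For mt-Tf the depth at base 9 was 3, 4 and 3 in wild-type mice and 2, 3 and 7 in mutant mice. One mismatch was seen in wild-type replicate 3 and one in mutant replicate 2, both A9U. Summed, 1 of 10 bases differed in wild-type mice and 1 of 12 in mutant mice, and the exact 95% intervals of 0.253% to 44.5% and 0.211% to 38.5% hold both the level of mt-Tv and a level near 1%. Outside base 9, mt-Tf had 0 or 1 mismatched base per library among 166 to 549 bases read.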

How the data were processed

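The deposited files count each base (or N) read per strand and position of chrM; these counts were not normalized by the authors, per the file headers. Library preparation followed a TruSeq small RNA protocol, per the labels, which ligates adapters to free RNA ends, so ends without the needed phosphate or hydroxyl are read less. The submitters' processing notes name Trim Galore, cutadapt, FastQC, STAR and GRCm38.p6; the sources used here give no counting tool, filter or version. A deposited table of position 9 counts has 6 blocks whose headings match no label, so its 16 value columns stayed out. Gene positions and sequences came from GENCODE M21 (GRCm38) and equalled the reference bases in the files.

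Depth is the sum of bases on the gene's strand. Every test was fitted over all mitochondrial features with edgeR 4.0.16 (quasi-likelihood, R 4.3.3) and adjusted by Benjamini-Hochberg at 0.05: rounded mean depth per gene with TMM (mean at least 10); mismatched against reference bases with a library effect (depth at least 50 in every library, and a mean of at least 1% away from position 9); and 10 nt outside against inside each tRNA end, or each 10 nt segment against the rest (means at least 10). Standard errors match the test's p. Single values used exact two-sided permutation tests (smallest p 0.1). limma 3.58.1 and DESeq2 1.42.0 were alternatives. All pairs of libraries differed by more than counting noise (chi-square per degree of freedom at least 3.33). Members, lists and rules (both tRNAs, their rRNA neighbours, the 3 most alike genes) were chosen with earlier results of these data known.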

Additional observations from a re-analysis of the deposited data

How the results depend on the processing

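Of 34 genes, 2 passed for depth; the count was 13 scaled to library totals, 16 to rRNA, 12 to tRNA, 6 (of 37) with no filter, 4 (of 36) by maximum depth, 4 with positions above 6000 left out and 0 with the replicate block. Leaving out one library gave 0 (without wild-type replicate 1 or 3) to 11 (without mutant replicate 3). For mt-Rnr2 the log2 difference of 0.51 (edgeR adjusted p = 0.117) became -0.14 scaled to the rRNA genes, which include mt-Rnr2 itself. By maximum depth, which for mt-Rnr2 lies near the inferred depth limit, it became -0.36. Every other setting kept it above 0, with the lowest value, 0.04, under library totals. Once bases deeper than 6000 were dropped, mt-Rnr2 was called higher (0.83, adjusted p = 0.0239 in edgeR). The same call came when tRNA genes set the scale (0.89, 0.0108) and when shallow genes were kept (0.61, 0.0486). The 0 of 25 boundaries became 2 by DESeq2, 2 of 27 with 20 nt windows and 2 of 27 against the whole tRNA, with 0 to 2 (without mutant replicate 2) leaving out one library; mt-Tv at its 3′ end ran from -0.24 (without wild-type replicate 1) to 0.39. The 0 of 124 segments became 1 by DESeq2, with 0 to 4 (2 without mutant replicate 1, 4 without mutant replicate 2) leaving out one library; mt-Tv bases 21 to 30 (0.0039) ran from -0.0054 (without mutant replicate 1) to 0.0099. The 0 of 42 mismatch positions ran from 0 to 1 (without wild-type replicate 1). The ratio of mt-Tf to mt-Rnr1 ran from -0.96 to 0.01 on the log2 scale, the latter without mutant replicate 1. The cause was not tested in any of these. Position 9 kept 0 calls in all 11 alternatives, and the log2 difference of mt-Tv there ran from -0.32 to -0.09. The ratios of mt-Tv to mt-Rnr1 and to mt-Rnr2 and of mt-Tf to mt-Tv kept their sign in all 10 alternatives each, but that of mt-Tv to mt-Rnr2 ran from -1.59 by median depth to -0.17 by maximum depth (log2). Same-numbered libraries of both genotypes correlated at -0.0338, -0.248 and 0.231 in their deviations over genes, and differently numbered ones at -0.314 to 0.331. These values gave no sign of pairing by replicate number, but cannot show that the design had none. With the replicate block mt-Tv depth differed by -0.71 (edgeR adjusted p = 0.101), the call of mt-Rnr1 was lost, and no call at mt-Tv changed. Depth limits mt-Tf throughout, and the inferred limit of 8000 bounds positions of mt-Rnr2, its first bases among them.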
